A study of Mus musculus with 1646 samples.

Results

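The 9 genes described here, *Cd34*, *Cd81*, *Ackr2*, *Ackr3*, *Ackr4*, *Pi16*, *Dpp4*, *Ly6a* and *Thy1*, encode surface and secreted proteins used to recognise CD34-positive stromal progenitors and trophocytes, the mesenchymal cells that feed the intestinal stem cell niche. Each was matched by its symbol, as the row of the colon count table whose Ensembl identifier carries that symbol in the GENCODE vM21 annotation. All 9 were found among the 46517 genes of the table. They passed the filter on low counts in the tests of fibroblasts, and all but *Dpp4* passed it in the tests among mural cells.

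The table holds 1646 single cells of the colon of male mice aged 10 to 20 weeks, on a C57Bl6/J background. They were profiled with SmartSeq2, which reads full-length cDNA of 1 sorted cell per well and uses no molecular identifiers. Cells were sorted from 4 strains of reporter mice, each named for the gene whose regulatory sequence drives its green or red fluorescent protein. PdgfrbGFP gave 761 cells, Acta2GFP 567 and Cspg4dsRED 91, and the remaining 13.8% were from PdgfraGFP. All were sorted as CD31-negative, which removes endothelial cells, and the tissue of Acta2GFP mice was also treated with elastase. The deposited labels place each cell in 1 of 8 clusters. Clusters 7, 5, 1, 6 and 2 are the fibroblasts (1307 cells), named here base, base to middle, middle, middle to apex and apex for their place along the crypt, and clusters 4, 3 and 8 are pericytes, vascular smooth muscle cells (SMC) and interstitial SMC (mural cells, 20.6% of the total). The labels name no mouse, so the reporter line was the replicate. The p-values therefore measure the spread between lines, and each line sorts another mixture of cells.

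CD34 is a sialomucin of haematopoietic progenitors, endothelial cells and many tissue fibroblasts. Trophocytes are CD34- and CD81-positive fibroblasts below the crypt base that secrete the BMP antagonist gremlin 1 and support epithelial stem cells, and PI16- and DPP4-positive fibroblasts of the adventitia are regarded as a reserve that can give rise to other fibroblasts. The atypical chemokine receptors bind chemokines without signalling through G proteins and remove them from the surroundings of the cell.

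The 9 genes lie on 6 autosomes of GRCm38. *Cd34* (chromosome 1, 194938819 to 194961279) and *Ackr3* (chromosome 1, 90203980 to 90216751) share chromosome 1. *Ackr2* (121898355 to 121911074), *Ackr4* (104084157 to 104126933, minus strand) and *Thy1* (44043384 to 44048579) share chromosome 9. *Cd81* lies on chromosome 7, *Pi16* on 17, *Dpp4* on 2 and *Ly6a* on 15. RefSeq promoter windows of GRCm38.p6, reaching from 250 bases before to 50 bases after the start, were found for 7 of the 9 genes and not for *Ly6a* and *Thy1*. The windows of 4 of these 7 genes are shown, for 2 of the patterns described below: *Cd81* and *Ackr3* were read in fibroblasts and mural cells alike, while *Pi16* and *Dpp4* were highest in the base fibroblasts of cluster 7. They span chr7:143052500-143052799 (plus strand), chr1:90203730-90204029 (plus strand), chr17:29318632-29318931 (plus strand) and chr2:62412182-62412481 (minus strand). Capitals mark 3 motifs, which were searched on both strands and do not overlap each other here: the TATA box (TATAAA), the CAAT box (CCAAT) and the GC box (GGGCGG).
Cd81: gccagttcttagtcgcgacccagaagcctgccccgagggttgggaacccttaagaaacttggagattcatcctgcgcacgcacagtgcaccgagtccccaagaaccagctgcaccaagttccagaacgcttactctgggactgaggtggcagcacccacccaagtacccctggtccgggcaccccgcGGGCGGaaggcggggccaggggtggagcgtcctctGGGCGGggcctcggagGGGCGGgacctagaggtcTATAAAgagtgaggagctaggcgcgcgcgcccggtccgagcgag
Ackr3: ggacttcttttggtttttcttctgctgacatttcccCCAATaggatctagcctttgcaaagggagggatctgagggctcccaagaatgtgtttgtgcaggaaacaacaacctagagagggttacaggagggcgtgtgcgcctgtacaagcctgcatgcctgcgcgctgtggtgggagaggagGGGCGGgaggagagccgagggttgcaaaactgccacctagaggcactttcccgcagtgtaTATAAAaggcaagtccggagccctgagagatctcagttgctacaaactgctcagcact
Pi16: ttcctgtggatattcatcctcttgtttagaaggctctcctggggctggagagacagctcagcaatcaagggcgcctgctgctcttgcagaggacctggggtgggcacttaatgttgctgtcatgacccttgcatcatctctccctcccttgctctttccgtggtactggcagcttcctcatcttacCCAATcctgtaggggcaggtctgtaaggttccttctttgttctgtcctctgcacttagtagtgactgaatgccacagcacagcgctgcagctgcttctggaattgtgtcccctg
Dpp4: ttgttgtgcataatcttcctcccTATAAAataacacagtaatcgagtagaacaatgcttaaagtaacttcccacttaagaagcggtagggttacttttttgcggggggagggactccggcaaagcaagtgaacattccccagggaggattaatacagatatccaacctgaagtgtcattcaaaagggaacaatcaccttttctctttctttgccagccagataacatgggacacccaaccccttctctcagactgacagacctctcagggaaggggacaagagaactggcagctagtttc
TATAAA was present in 13.6% of the 32851 promoters of this length, CCAAT in 37.4% and GGGCGG in 35.7%. The *Cd81* window held 3 GGGCGG and 1 TATAAA and had 23 CG dinucleotides, against a median of 7 over all promoters. *Ackr3* held each motif once and had 8 CG dinucleotides. The windows of *Pi16*, with 1 CCAAT and 3 CG dinucleotides, and of *Dpp4*, with 1 TATAAA and 4 CG dinucleotides, had no motif in common. Of the windows not printed, that of *Cd34* held none of the motifs and 7 CG dinucleotides. A match of letters is not a binding site.

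Cells had 47598 to 1494292 counts on genes, with a median of 248628. By line the median was lowest in Cspg4dsRED (113721), followed by Acta2GFP (170222), PdgfrbGFP (296654) and PdgfraGFP (322654). A level is the count of a gene scaled to 500000 counts per cell and averaged over the cells of a cluster in 1 line with at least 10 such cells. Cluster 5 gave 4 such lines, clusters 7, 1, 2 and 3 gave 3 each, clusters 6 and 4 gave 2, and cluster 8 gave 1. The 5 fibroblast markers summed to between 5473 and 8540 in the fibroblast clusters and to between 523 and 1811 in the mural clusters, and the 4 apex markers *Tnc*, *Il1rl1*, *Ptgs2* and *Foxl1* summed to 41.5 and 85.02 in clusters 7 and 5, to 576 and 480 in clusters 1 and 6, and to 3480 in cluster 2, so that they were highest at the apex but not higher in cluster 6 than in cluster 1. Markers of lymphatic endothelial, immune, epithelial, mesothelial, and glial and neuronal cells summed to under 20 in every cluster, as means over lines. Of 12 blood endothelial markers, 2 reached a level of 10 in cluster 7 (summed level 146.2 to 281.3 over lines), led by *Tek*, while *Pecam1* was at 6.4 over all cells of the cluster. In pericytes, 4 of them reached this level (summed level 131.8 to 217.4), led by *Plvap* at 69.04 over all cells. In cluster 5 they summed to 160.2, also led by *Tek*. The 2 markers of interstitial cells of Cajal, *Kit* and *Ano1*, summed to 171.3 in cluster 2, 294.99 in cluster 4 and 292.4 in cluster 3, mostly from *Ano1*, which smooth muscle also expresses.

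**Figure D1:**
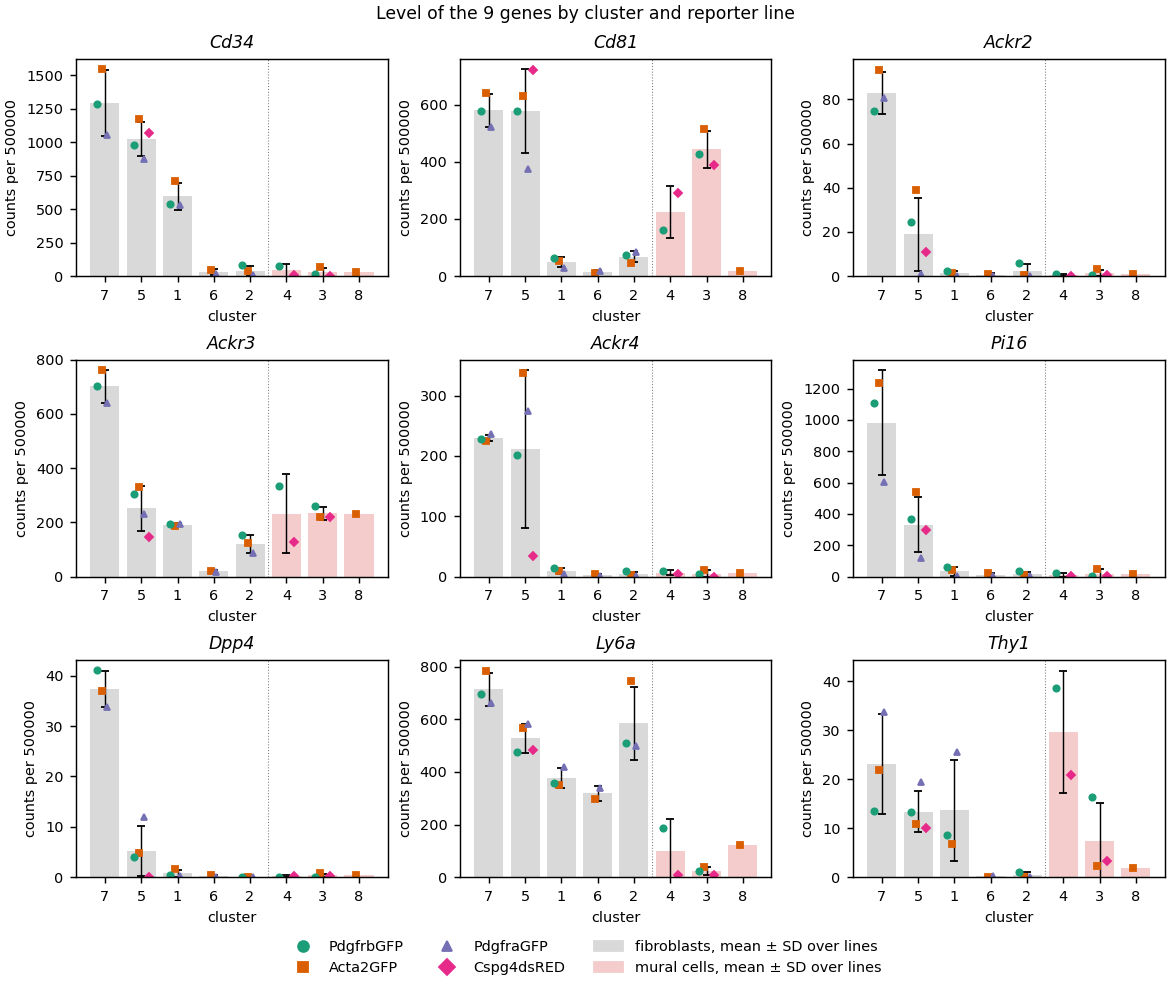
Mean counts per 500000 of each of the 9 genes (vertical axis, linear) by cluster, fibroblasts from base to apex (7, 5, 1, 6, 2) and then mural cells (4, 3, 8); points are reporter lines with at least 10 cells, bars the mean and error bars the SD over lines, drawn down to 0 at most. *Cd34* stays at 595 or more through clusters 7, 5 and 1 and is at 41.3 or less in clusters 6 and 2, while *Ackr2*, *Ackr3*, *Pi16* and *Dpp4* peak in cluster 7, *Ackr4* and *Cd81* are high in clusters 7 and 5, and *Ly6a* is present all along the crypt.

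Of the 9 genes, 8 had their highest mean in the base fibroblasts of cluster 7, and *Thy1* had it in pericytes. These means are over unlike lines, since Cspg4dsRED entered cluster 5 and not cluster 7. Over all cells *Ackr4* was higher in cluster 5, at 248.5 against 225.3 in cluster 7. The means of *Cd81* in clusters 7 and 5 were close, at 580.1 and 576.6. Along the crypt their levels ended at different places. *Ackr2*, *Ackr3*, *Dpp4* and *Pi16* were highest in cluster 7 with no overlap of lines between clusters 7 and 5, *Cd81* and *Ackr4* were high in clusters 7 and 5 and low from cluster 1 onwards, *Cd34* and *Thy1* reached into cluster 1, and *Ly6a* was high from base to apex. The share of all genes whose lines separate clusters 7 and 5 was not counted, and the test of this step, given below, called none of the 9. Without the 3 plates described below, the lines of *Ackr2* overlapped. The highest cluster depended on the processing: with lines of at least 3 cells, 6 of the 9 genes were highest in cluster 7, and with plates in place of lines or with shares of summed counts 7 were.

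*Cd34* in cluster 7 was at 1544 counts per 500000 in Acta2GFP, 1051 in PdgfraGFP and 1285 in PdgfrbGFP. In cluster 5 it was at 1174, 878 and 981 in the same lines and at 1072 in Cspg4dsRED, and in cluster 1 at 712, 533 and 540. The lines of clusters 7 and 5 overlapped, although within each line that both share cluster 7 was the higher. The lines of cluster 1 lay below both. In cluster 6 the level was 48.3 in Acta2GFP and 12.05 in PdgfraGFP. In the apex cells of cluster 2 it was 39.3 in Acta2GFP, 5.00 in PdgfraGFP and 79.7 in PdgfrbGFP. All lines of clusters 6 and 2 were below all lines of clusters 7, 5 and 1. Pericytes were at 6.5 in Cspg4dsRED and 78.9 in PdgfrbGFP, vascular SMC at 4.1 to 69.1, and interstitial SMC at 30.2 in their 1 line, so these overlapped with the apex cells. The pattern of *Cd34* along the crypt was the study's own choice on these cells and is not independent evidence. *Gm16897*, a transcript annotated on the opposite strand over the 3′ part of *Cd34*, followed it from 104.5 counts per 500000 in cluster 7 to 2.3 in cluster 2 over all cells, and as the sources used here do not state whether strand was used in counting, reads of the overlap cannot be told apart.

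*Cd81* encodes a tetraspanin that organises receptors in the plasma membrane. In cluster 7 it was at 640 in Acta2GFP, 523 in PdgfraGFP and 577 in PdgfrbGFP. Cluster 5 gave 631, 376.045 and 577 in these lines and 723 in Cspg4dsRED. The lines of clusters 7 and 5 overlapped. In cluster 1 *Cd81* was at 53.6, 29.4 and 61.7, and in cluster 6 at 11.9 in Acta2GFP and 19.5 in PdgfraGFP. The apex cells of cluster 2 were at 46.8, 82.8 and 73.997, overlapping with cluster 1 and above cluster 6. Mural cells split: vascular SMC were at 388.5 to 515, pericytes at 290 in Cspg4dsRED and 160 in PdgfrbGFP, and interstitial SMC at 18.03. All lines of vascular SMC were below those of cluster 7, and they overlapped with cluster 5 only through its PdgfraGFP line. The interstitial level rested on both Acta2GFP plates, with 54.2 in 12 interstitial cells of the larger plate and 7.17 in 40 of the smaller. *R74862*, which overlaps the 5′ end of *Cd81* on the other strand, followed it from 34.7 in cluster 7 to 1.1 in cluster 8.

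The 3 atypical chemokine receptors had 3 different patterns. *Ackr2*, a scavenger of inflammatory CC chemokines, was at 93.5 in Acta2GFP, 80.7 in PdgfraGFP and 74.8 in PdgfrbGFP in cluster 7. In cluster 5 it was at 39.2, 1.14 and 24.4, with 10.98 in Cspg4dsRED, so that no line of cluster 5 reached cluster 7. Without the 3 plates described below, the lines overlapped, with the lowest of cluster 7 at 17.6 and the highest of cluster 5 at 39.96. From cluster 1 onwards every line was at 5.89 or less. *Ackr4*, which takes up CCL19, CCL21 and CCL25, was at 224.99 in Acta2GFP, 235.6 in PdgfraGFP and 228.3 in PdgfrbGFP in cluster 7. Cluster 5 gave 337.1, 273.9 and 202.2, and 34.1 in the 13 cells of Cspg4dsRED. These lines lay on both sides of cluster 7. In clusters 1, 6 and 2 the highest line was at 13.6, and in mural cells at 11.6. *Ackr4* overlaps *Acad11* on the other strand, which was at 23.04 in cluster 7 and 11.9 in cluster 1 over all cells.

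*Ackr3*, which takes up CXCL12 and CXCL11, was the receptor read in mural cells as well as fibroblasts. In cluster 7 it was at 762 in Acta2GFP, 641 in PdgfraGFP and 703 in PdgfrbGFP, and in cluster 5 at 330, 231.3 and 304.2, with 145.4 in Cspg4dsRED. All lines of cluster 7 were above all lines of cluster 5. Cluster 1 followed at 185.4 to 195.6, cluster 6 at 21.8 in Acta2GFP and 16.7 in PdgfraGFP, and cluster 2 at 123.1, 87.7 and 151.6. The level thus had its minimum in cluster 6 and was higher again at the apex, with no overlap between clusters 6 and 2. Mural cells were at 220 to 261.1 in vascular SMC, 232.2 in interstitial SMC, and 128.1 in Cspg4dsRED and 335.1 in PdgfrbGFP in pericytes.

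*Pi16*, a secreted and membrane-anchored peptidase inhibitor family member, was at 1238 in Acta2GFP, 602 in PdgfraGFP and 1110 in PdgfrbGFP in cluster 7. In cluster 5 it was at 541, 116.7 and 370, and at 299.4 in Cspg4dsRED. All lines of cluster 7 were above those of cluster 5, and within each of the 3 shared lines the base cells were the higher. Cluster 1 had 42.8 in Acta2GFP, 3.26 in PdgfraGFP and 59.3 in PdgfrbGFP, and every line of clusters 6 and 2 was at 32.8 or less. *Dpp4*, a membrane peptidase that removes N-terminal dipeptides from chemokines and incretins, was much lower in counts but had the same peak: 37.01 in Acta2GFP, 33.9 in PdgfraGFP and 41.04 in PdgfrbGFP in cluster 7. In cluster 5 it was at 4.81, 11.8 and 3.91, and at 0 in Cspg4dsRED. Outside these clusters the highest line was at 1.55. *Dpp4* rested on 7934 counts over all cells of cluster 7 and on 8 counts over all cells of cluster 2.

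*Ly6a* (SCA-1), a GPI-anchored marker of mesenchymal and haematopoietic progenitors, was at 785 in Acta2GFP, 664 in PdgfraGFP and 695 in PdgfrbGFP in cluster 7. In cluster 5 the 4 lines were at 477.4 to 582, in cluster 1 at 350.8 to 420, and in cluster 6 at 298.3 and 339.4. At the apex it was at 744, 500 and 510, overlapping with cluster 7. Mural cells were lower, at 8.62 to 37.4 in vascular SMC and 122.8 in interstitial SMC, and pericytes were at 9.90 in Cspg4dsRED but 185.3 in PdgfrbGFP. *Ly6a* has close relatives in the Ly6 family, and how reads were shared between them is not given in the sources used here. *Thy1*, a GPI-anchored protein of T cells, neurons and stromal cells, was low throughout. It was at 21.9, 33.7 and 13.5 in cluster 7, 9.92 to 19.3 in the 4 lines of cluster 5, and 6.67, 25.5 and 8.70 in cluster 1, and these overlapped. It was at 0.20 or less in cluster 6 and at 1.04 or less in cluster 2. Pericytes were the highest, at 20.9 in Cspg4dsRED and 38.5 in PdgfrbGFP, and overlapped with cluster 7.

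Between genes, levels were compared only per kilobase of exon. In cluster 7, *Ly6a* was the highest, at 593 ± 52.1 counts per 500000 and kilobase (SD, n = 3 lines), followed by *Ackr3* at 210, *Cd81* at 201.5, *Cd34* at 177.4 and *Pi16* at 154.5. The spread over lines of the latter 4 overlapped. *Ackr4* was at 42.7, *Ackr2* at 26.5, *Thy1* at 7.69 and *Dpp4* at 5.90.

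Shares of cells followed the levels. To compare cells of unequal depth, each cell was thinned to 50000 counts, leaving out 11 cells that had fewer, and a cell was counted with at least 10 thinned counts, which corresponds to 100 counts per 500000. Intervals are exact 95% Clopper-Pearson intervals over cells. They cover counting error only and leave out the spread between the lines and plates that cells share. *Cd34* passed in 99.5%, 97.2% and 87.9% of the cells of clusters 7, 5 and 1, and in 8.9% and 15.3% of those of clusters 6 and 2. *Pi16* passed in 90% of cluster 7 (interval 85.3% to 93.6%) and 56.6% of cluster 5 (51.7% to 61.4%). *Ackr4* passed in 68.6% and 58.96% of these clusters, and in 0.62% of cluster 1, or 3 cells. *Ackr2* and *Dpp4* were carried by a minority even at the base: *Ackr2* by 27.7% of cluster 7 (21.9% to 34.1%) and 6.1% of cluster 5, and *Dpp4* by 15.9% (11.3% to 21.4%) and 1.7%. *Dpp4* passed in 0% of apex cells, with an upper bound of 2.78% for cells at that limit, and before thinning 5.34% of them had at least 1 *Dpp4* count. *Ly6a* passed in 100% of cluster 7 and 94.7% of cluster 2, and in 20.7% of pericytes. *Thy1* passed in 15% of pericytes and in 4.5% of cluster 7. A single count said little. Before thinning, 75% to 83.8% of mural cells had at least 1 *Cd34* count, and after thinning to 50000 counts 41.4% to 52.1% had, although their share with at least 10 thinned counts was 5.7% to 12.96%.

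**Figure D2:**
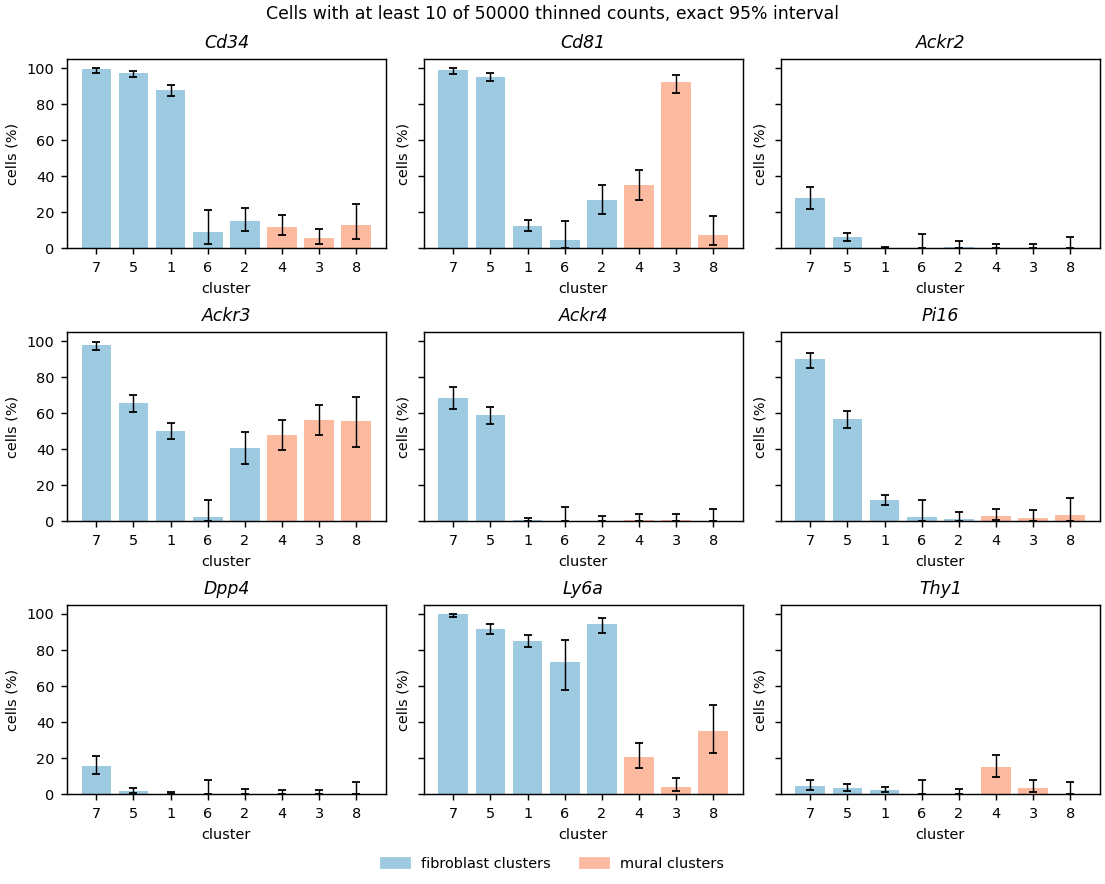
Percent of cells (vertical axis) with at least 10 counts of a gene after thinning to 50000 counts, by cluster in the order 7, 5, 1, 6, 2 (fibroblasts, blue) and 4, 3, 8 (mural cells, red); error bars are exact 95% binomial intervals over cells. *Cd34* passes in 87.9% or more of cells in clusters 7, 5 and 1, *Ackr2* in 27.7% and *Dpp4* in 15.9% of cluster 7, and *Ly6a* in 73.3% or more of every fibroblast cluster.

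Fibroblasts were compared with mural cells to ask which of the 9 genes separate the classes. *Cd34*, *Ackr2*, *Ackr4*, *Pi16*, *Dpp4* and *Ly6a* were higher in fibroblasts, and *Cd81*, *Ackr3* and *Thy1* did not pass the test. Raw counts were summed per line (4 sums of fibroblasts, 3 of mural cells), the quasi-likelihood F-test of edgeR was applied, and its p-values were adjusted over all genes by the Benjamini-Hochberg method. Since the clusters were drawn from the same counts, the tests describe the clusters. The 6 genes that passed, of 9, stand beside 6.57% of all 19173 genes called in either direction and 3.21% called higher in fibroblasts, as a description, since the genes were chosen with results of these data known. The log2 fold change was 4.66 for *Cd34* (SE 0.76, adjusted p = 0.0067), 5.17 for *Ackr2* (SE 1.04, adjusted p = 0.017) and 4.23 for *Ackr4* (SE 0.77, adjusted p = 0.011). It was 4.25 for *Pi16* (adjusted p = 0.021), 5.80 for *Dpp4* (adjusted p = 0.016) and 3.12 for *Ly6a* (adjusted p = 0.014). *Dpp4* had 6, 11 and 5 counts in clusters 4, 3 and 8 and passed the filter on low counts only through the fibroblasts, where it is high, so its call is no support for a difference. For *Cd81* it was 0.10 (SE 0.34), for *Ackr3* 0.30 (SE 0.30) and for *Thy1* -0.14 (SE 0.63). Without PdgfrbGFP, which leaves 2 mural sums, none of the 9 passed, at adjusted p of 0.056 or more, although the 6 log2 fold changes were between 3.69 and 5.40. Without Acta2GFP only *Cd34* and *Ackr2* passed, without Cspg4dsRED only *Cd34*, *Ackr4* and *Ly6a*, and with the line as a block *Ly6a* did not (adjusted p = 0.065).

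Along the crypt, each of 4 steps between neighbouring clusters was tested to ask where the genes change, in 1 fit of the 15 sums of fibroblast clusters. From cluster 7 to cluster 5 none of the 9 genes passed, beside 0.037% of 18924 genes. *Ackr3* came closest, with a log2 fold change of -1.34 (SE 0.25, p = 5.7e-05, adjusted p = 0.083), and *Dpp4* followed with -3.00 (p = 0.021, adjusted p = 0.74); the other 7 had an unadjusted p of 0.16 or more. *Ackr3* passed with DESeq2 (adjusted p = 0.0011) and with plates in place of lines (adjusted p = 0.018). For *Cd34* the log2 fold change was -0.22 (SE 0.62) and for *Pi16* -1.31 (SE 0.96).

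From cluster 5 to cluster 1, *Cd81* and *Ackr4* fell together while *Cd34* did not pass. The log2 fold change of *Cd81* was -3.57 (SE 0.32, adjusted p = 0.00011) and that of *Ackr4* -4.86 (SE 0.86, adjusted p = 0.019), beside 0.412% of all genes called and 0.164% called lower. *Cd34* had -0.76 (SE 0.63, adjusted p = 1). *Pi16* had -3.53 (SE 1.11, adjusted p = 0.30) and *Ackr2* -4.71 (SE 1.52, adjusted p = 0.32), both of which passed with plates in place of lines and with DESeq2. *Cd81* passed under each line left out, at a log2 fold change of -3.75 to -3.43. *Ackr4* did not pass without Acta2GFP (adjusted p = 0.40), without PdgfraGFP or without PdgfrbGFP.

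From cluster 1 to cluster 6, *Cd34*, *Ackr3* and *Thy1* fell. The values were -4.47 for *Cd34* (SE 0.92, adjusted p = 0.024), -3.38 for *Ackr3* (SE 0.34, adjusted p = 0.00020) and -5.88 for *Thy1* (SE 1.35, adjusted p = 0.036), beside 1.86% of all genes called, 1.45% called lower and a median over all genes of -0.29. *Thy1* had 9 counts over all cells of cluster 6 and passed the filter only through clusters where it is higher, so its call is no support for a difference. *Ly6a* had -0.12 (SE 0.26). The sums of cluster 6 held 10 cells of Acta2GFP and 26 of PdgfraGFP. Without Acta2GFP or PdgfraGFP, cluster 6 was left with 1 sum, which was assumed to vary like the sums of the other clusters. Without Acta2GFP only *Ackr3* then passed, without PdgfraGFP or PdgfrbGFP *Thy1* did not, and with the line as a block *Thy1* had an adjusted p of 0.055. Without the 3 plates described below, which also left cluster 6 with 1 sum, *Cd34* and *Ackr3* passed and *Thy1* did not (log2 fold change -6.10, adjusted p = 0.23). From cluster 6 to the apex cells of cluster 2, *Ackr3* and *Cd81* rose again. *Ackr3* had a log2 fold change of 2.96 (SE 0.34, adjusted p = 0.00035) and *Cd81* 1.47 (SE 0.35, adjusted p = 0.039), beside 2.1% of all genes called, 1.52% called higher and a median of 0.22. The other 7 genes did not pass, and *Ly6a*, with 0.71 (SE 0.27, adjusted p = 0.18), was the nearest. Neither *Ackr3* nor *Cd81* passed without Acta2GFP. Without the 3 plates, with 1 sum of cluster 6, the log2 fold change was 2.92 for *Ackr3* (adjusted p = 0.051) and 0.94 for *Cd81* (adjusted p = 0.71), so that neither passed. *Cd81* did not pass without PdgfrbGFP, nor with plates in place of lines (adjusted p = 0.17).

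**Figure D3:**
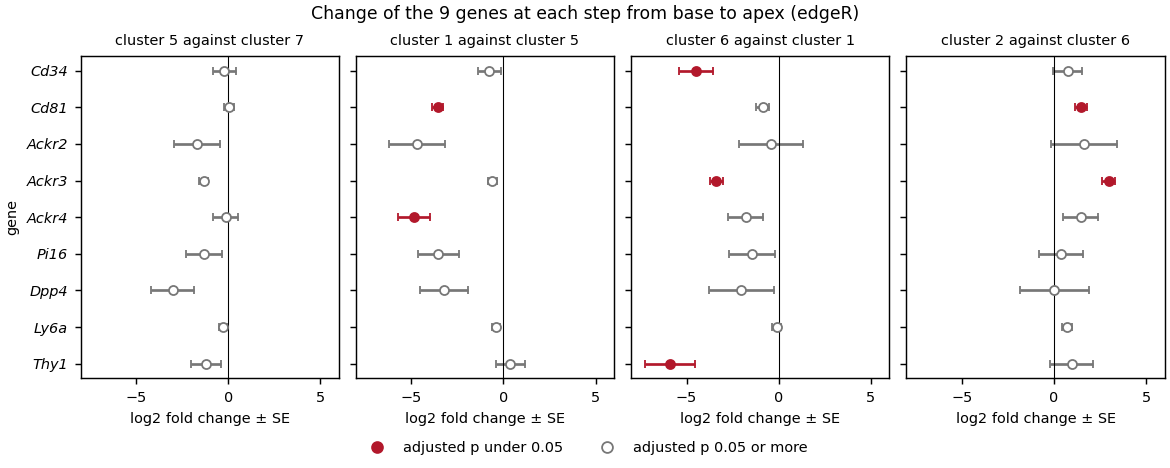
Log2 fold change with its SE (horizontal axis) of the 9 genes at each of 4 steps from base to apex, from edgeR on sums per line; filled points have an adjusted p under 0.05. No gene passes from cluster 7 to 5, and *Cd81* and *Ackr4* fall from 5 to 1. *Cd34* and *Ackr3* fall from 1 to 6, and *Cd81* and *Ackr3* rise from 6 to 2. *Thy1* is also filled from 1 to 6, but it had 9 counts in cluster 6 and its call is no support for a difference.

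Between apex and base fibroblasts, the ends of the axis, 7 of the 9 genes were called, all lower at the apex. Beside them, 5.46% of all genes were called in either direction and 2.54% lower. The 7 include *Dpp4* and *Thy1*, whose calls are no support for a difference, as given below. The log2 fold change was -4.72 for *Cd34* (SE 0.78, adjusted p = 0.0016), -2.93 for *Cd81* (SE 0.31, adjusted p = 6.6e-05), -2.35 for *Ackr3* (SE 0.28, adjusted p = 0.00012) and -5.35 for *Ackr4* (SE 0.90, adjusted p = 0.0019). *Pi16* had -5.91 (adjusted p = 0.010), *Thy1* -5.73 (adjusted p = 0.0039) and *Dpp4* -8.23 (SE 1.70, adjusted p = 0.0075). The value of *Dpp4* depends on the 8 counts of cluster 2 and that of *Thy1* on 33. Both passed the filter on low counts only through clusters where they are higher, so their calls are no support for a difference. *Ackr2* had -5.18 (SE 1.58, adjusted p = 0.075), and passed with the line as a block (adjusted p = 0.011). *Ly6a* did not pass, with -0.12 (SE 0.23, adjusted p = 0.88). The median over the 9 genes was -5.18, against 0.03 over all genes. Without Acta2GFP only *Cd81* and *Ackr3* passed, and without PdgfrbGFP *Pi16* and *Dpp4* did not.

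Among mural cells the genes separated the clusters little. From vascular SMC to pericytes none of the 8 genes tested passed, beside 0.668% of 16328 genes, and 1 had an unadjusted p under 0.05: *Ly6a*, with a log2 fold change of 2.36 (SE 0.87, p = 0.019, adjusted p = 0.35). DESeq2 also called none. *Ly6a* passed without Cspg4dsRED (adjusted p = 0.00060), and without PdgfrbGFP its sign turned, each time with 1 sum of pericytes that was assumed to vary like the sums of SMC. *Thy1* had 2.42 (SE 1.19, adjusted p = 0.50). Interstitial SMC gave 1 sum, of 52 cells of Acta2GFP, and so had no replicate, and their spread was borrowed from the other sums. Their values against vascular SMC are therefore given with no p. The log2 fold change of *Cd81* was -4.63, from a sum of both plates on which its level was 54.2 and 7.17. That fit called 1.04% of all genes and 0.643% lower, and with 1 sum in an arm nothing is read from its calls.

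A small set of the pericytes read *Pdgfra*, while reads of *Col1a1*, another fibroblast marker, were not confined to it. Among the pericytes, 19 (13.4%) had at least 10 *Pdgfra* counts per 500000, a split chosen after the values were seen. In these 19 cells *Cd34* had a mean of 450.7 (median 377.9), *Ly6a* of 628 (median 456.2) and *Pi16* of 98.97. The mean of *Pi16* rested on few cells, with a median of 6.34 and 4 cells at 100 or more. In the other pericytes the means were 9.98, 66.9 and 3.18. *Ackr3* had a mean of 423.96 in the 19 cells and 267.9 in the others, with medians of 259.3 and 35.7. The means of *Cd81* were close, at 186.3 and 192.3, while its medians were 111.6 and 19.8. *Thy1* had means of 16.6 and 36.3, with medians of 1.81 and 0. Of the 19 cells, 16 were from PdgfrbGFP and none from Cspg4dsRED. *Col1a1* had a mean of 1281 in the 19 cells and 287.1 in the others, of which 40 were at 100 or more. In the 33 pericytes of Cspg4dsRED its mean was 464.5 (median 16.6). A part of mixed wells in these values was not tested.

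Counts of several of the base genes in smooth muscle cells differed by plate. In SMC (clusters 3 and 8), *Cd34* was at 110 on the larger of both Acta2GFP plates and at 2.38 to 7.09 on the other 4 plates with at least 20 mural cells. *Pi16* was at 78.1 on that plate and at 0.85 to 3.51 on the others, and *Ackr4* at 19.6 against 0 to 4.71. The fibroblasts of that Acta2GFP plate, 89.9% of its cells, read *Cd34* at 1017 and *Pi16* at 590. *Ackr3*, with 211.9 on that plate and 218.1 to 312.7 on the others, was not high there. For *Cd81*, which differs between clusters 3 and 8, the mix of both clusters sets the pooled level of a plate. In cluster 3 it was at 519.8 on the larger Acta2GFP plate and at 388.5 to 506.5 on the others, and in cluster 8 at 54.2 against 7.17. Within these 5 plates, the mean Spearman rho between a mural cell's count and the summed count of fibroblasts in its row or column was 0.47 for *Pi16*, 0.33 for *Ackr4*, 0.29 for *Cd34*, 0.27 for *Dpp4*, 0.26 for *Ackr2*, 0.16 for *Thy1*, 0.094 for *Ly6a*, 0.081 for *Ackr3* and 0.078 for *Cd81*, as a description of cells that share a plate and its index sequences. For the fibroblast markers *Col1a1* and *Pdgfra* the mean rho was 0.20 and 0.16. Values of *Cd34*, *Pi16*, *Ackr2*, *Ackr4* and *Dpp4* in mural cells and apex fibroblasts are read here with these values beside them, and a part of counts carried between wells was not tested. Without the larger Acta2GFP plate and the 2 plates of PdgfrbGFP with over 200 fibroblasts, an alternative chosen after the data were seen, the same number of genes, 6, passed between fibroblasts and mural cells, and 7 between apex and base, where *Ackr2* passed (adjusted p = 0.044) and *Dpp4* did not. The 6 include *Dpp4* and the 7 include *Thy1*, whose calls in these comparisons are no support for a difference. Without these plates, *Pi16* also fell from cluster 5 to cluster 1, with a log2 fold change of -5.06 (adjusted p = 0.0084).

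**Figure D4:**
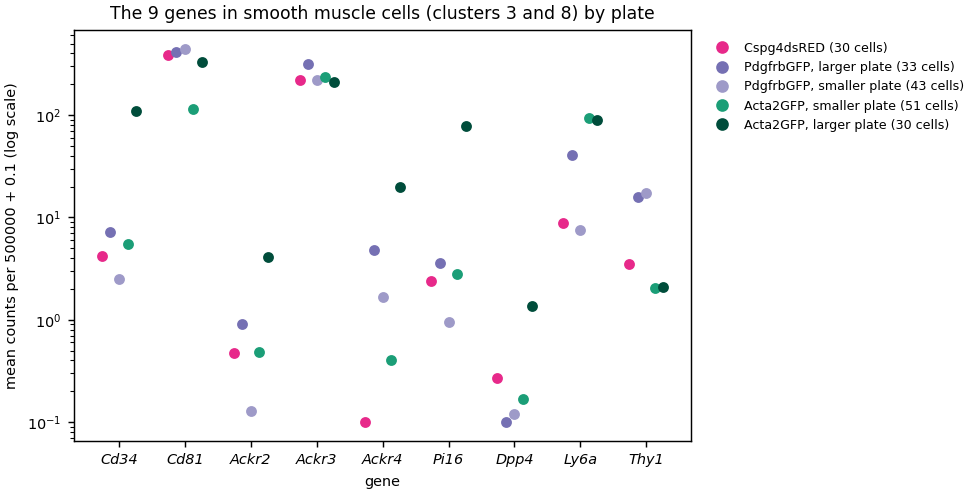
Mean counts per 500000 plus 0.1 (vertical axis, log scale) of the 9 genes in smooth muscle cells (clusters 3 and 8), 1 point per plate with at least 20 mural cells. The larger Acta2GFP plate is above the other 4 plates for *Cd34* (110), *Pi16* (78.1), *Ackr4* (19.6), *Ackr2* (4.00) and *Dpp4* (1.25), while *Cd81* and *Ackr3* are at 114.9 to 443.2 on every plate, pooled over both clusters, whose mix differs by plate.

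The genes were also followed within cells of the base clusters, with at least 10 thinned counts as the limit and as a description of cells that share lines and plates. Of the 220 cells of cluster 7, 35 carried *Dpp4*, and 32 of these (91.4%) carried *Pi16*, against 90% of all cells of the cluster. The share of *Pi16* cells among *Dpp4* cells was close to that of the cluster. *Ackr2* was carried by 61 cells, 60 of which (98.4%) carried *Pi16* and 51 of which (83.6%) carried *Ackr4*, against 68.6% of the cluster for the latter. *Ackr2* and *Dpp4* met in 15 cells, which is 42.9% of the *Dpp4* cells and 24.6% of the *Ackr2* cells, against 27.7% and 15.9% of the cluster. In cluster 5, *Grem1*, the BMP antagonist of trophocytes, was carried by 29.01% of the cells. *Ackr4* was carried by 73.2% of these cells, against 58.96% of the cluster. *Pi16* was carried by 34.96% of the *Grem1* cells, against 56.6% of the cluster, and by 43 cells together with *Grem1*. In cluster 7 only 5 cells carried *Grem1*. *Cd81* was carried by 95.9% of the *Grem1* cells of cluster 5 and by 95.3% of the cluster.

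The genes with the most similar pattern were sought by Pearson's r of log2(CPM + 1), where CPM is counts scaled to the library size, over the 21 sums of all clusters and lines, among 21739 genes, with no test, since sums share lines and plates. For *Cd34* they were *Cd55* (r = 0.99), *Serpinf1* and *Gm16083*. For *Cd81* they were *R74862*, the overlapping transcript (0.98), *Hoxb2* (0.89) and *Hoxb3os*. *Ackr2* was closest to *Plcxd3* (0.96), *Pi16* (0.93) and *P4ha3*, and *Ackr4* to *Adamtsl3* (0.96), *Pcolce2* and *Flrt2*. *Pi16* was closest to *Pcolce2* (0.96), *Tek* (0.95) and *Flrt2*, so that *Pi16* and *Ackr4* had 2 of their 3 nearest genes in common. *Dpp4* was closest to *Lmo2* (0.97), *Gpr1* and *Islr2*, *Ly6a* to *Nupr1* (0.97), *Lpar1* and *Itga11*, and *Thy1* to *Ezr* (0.92), *Slco3a1* and *Gngt2*. *Ackr3* had the weakest neighbours, with *Bin1* (0.87), *Wdr26* and *Rhoq*.

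Related genes were taken from 4 lists that leave out the 9. Of 16 genes of adventitial fibroblasts, 12 were higher in fibroblasts than in mural cells and none lower, beside 3.21% of all genes called higher, and between apex and base 11 were lower and 1 higher, beside 2.54% of all genes called lower and 5.46% in either direction. The largest falls were of the semaphorin *Sema3c* (log2 fold change -6.89, adjusted p = 0.0022), the procollagen C-proteinase enhancer *Pcolce2* (-6.15, adjusted p = 0.0013), the complement regulator *Cd55* (-6.05, adjusted p = 0.00090) and *Col14a1* (-5.94, adjusted p = 0.00092). The member that was higher was *Procr*, the protein C receptor. *Pcolce2* was also the gene of this list called from cluster 5 to cluster 1 (-5.35, adjusted p = 0.016), the step at which *Cd81* and *Ackr4* fell. Of 14 trophocyte and niche factors, 4 were lower and 4 higher at the apex, beside the same 5.46%. The WNT ligands *Wnt2* (-6.60, adjusted p = 0.0050) and *Wnt2b* (-4.78, adjusted p = 0.041) and the R-spondin *Rspo3* (-5.62, adjusted p = 0.011) were lower and *Fgf7* higher (3.8, adjusted p = 0.0070). From cluster 1 to cluster 6, *Grem1* fell (-6.98, adjusted p = 0.026) together with *Cd34*, and *Pdgfra* rose (1.78, adjusted p = 0.0095). Without Acta2GFP, *Pcolce2*, *Wnt2*, *Wnt2b*, *Rspo3*, *Grem1* and *Pdgfra* no longer passed in these comparisons, and without PdgfrbGFP *Rspo3*, *Fgf7*, *Pdgfra* and, from 5 to 1, *Pcolce2* did not.

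Of the 22 chemokines and classical receptors that meet the atypical receptors, 12 were tested between apex and base, and 2 passed, both lower at the apex, beside 5.46% of all genes called and 2.54% called lower. These were *Ccl7* (-6.51, adjusted p = 0.0012) and *Ccl11* (-4.36, adjusted p = 0.0022), CC chemokines that ACKR2 binds. *Ccl7* was at 82.2 counts per 500000 over all cells of cluster 7, where *Ackr2* was highest, and at 14.99 in cluster 5 and 0.7 in cluster 2. *Cxcl12*, the ligand of ACKR3, ran differently from the receptor: it was at 158.6 and 382.4 in clusters 7 and 5, at 1424 and 1949 in clusters 1 and 6, and at 215.8 in cluster 2, so that its highest cluster was the one with the lowest *Ackr3*. From cluster 6 to cluster 2 *Cxcl12* fell (-2.88, adjusted p = 0.0025) where *Ackr3* rose. The ACKR4 ligands *Ccl19* and *Ccl21a* were at 0.0 and 12.4 in cluster 7 and at 0.8 and 2.2 in cluster 5. Of 24 family relatives (22 tested), the DPP4 relative *Fap* (-6.83, adjusted p = 0.013) and the PI16 relative *Pi15* (-5.68, adjusted p = 0.0032) were lower at the apex, like the members, and the tetraspanin *Cd82* was higher (6.41, adjusted p = 0.00025), opposite to *Cd81*. *Ccl11*, *Cxcl12*, *Fap* and *Pi15* no longer passed without Acta2GFP, and *Fap* also not without PdgfraGFP or PdgfrbGFP.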

How the data were processed

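SmartSeq2 libraries of 1646 single colon cells were analysed. Per the study's methods, the authors mapped adapter-trimmed reads to GRCm38 with TopHat2, counted them per gene with featureCounts, and deposited the raw counts, as whole numbers. Per the labels, bcl2fastq, Bowtie, Bowtie2 and Subread were also used. The 92 ERCC spike-in rows, 1.36% of the counts, were left out. Line, plate and cluster came from the labels, and the columns of all cells differed from each other.

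The 9 genes and the other lists were chosen with earlier results of these data known. All 9 are named, and from each other list up to 4 genes with the largest absolute log2 fold change among those called, plus ligands and relatives. Levels are means over cells of counts per 500000, then mean ± SD over lines with at least 10 cells. For tests, the raw counts of all cells of 1 line and cluster were added up (10 or more cells), scaled with TMM, passed through filterByExpr, and entered into the quasi-likelihood F-test of edgeR. Adjustment was by Benjamini-Hochberg, with a threshold of 0.05. SE was taken as the ratio of the log2 fold change to the square root of F. Sums of 1 line share plates, and their deviations from the cluster means correlated at 0.012 to 0.16 (26 pairs), against -0.11 to 0.069 between lines (63 pairs), so the line was also used as a block. Cells were thinned with a fixed seed. No doublet caller was run, since the study filtered cells before deposit.

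Alternatives were DESeq2, no filter, a block for the line, sums of 3 or more cells, sums per plate, limma on means per cell, each line left out in turn, and, added after the data were seen, leaving out 3 plates, at least 10 thinned counts, and a split of pericytes. Software was Python 3.11.15 with pandas 2.3.3, numpy 2.4.6 and scipy 1.17.1, and R 4.3.3 with DESeq2 1.42.0, limma 3.58.1 and edgeR 4.0.16.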

Additional observations from a re-analysis of the deposited data

Results flagged for a closer look

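In smooth muscle cells compared by plate (5 plates), the larger of both Acta2GFP plates stood apart from the other 4 for 5 of the genes. *Cd34* was at 110 counts per 500000 there and at 2.38 to 7.09 on the others. *Pi16* was at 78.1 against 0.85 to 3.51, *Ackr4* at 19.6 against 0 to 4.71, *Ackr2* at 4.00 against 0.027 to 0.81, and *Dpp4* at 1.25 against 0 to 0.17. *Ackr3* stood apart on 1 of the 2 PdgfrbGFP plates compared (33 smooth muscle cells), at 312.7 against 211.9 to 236.9. In all, 6 of 27 groups of levels had a sample whose gap to the next exceeded the limit, where chance gives about 1 in 20. The 5 genes of the Acta2GFP plate are not independent, since they come from the same cells.

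Among plates with at least 10 cells of each of clusters 5 and 7, *Cd81* was higher in cluster 5 on both such plates of PdgfrbGFP, by at most 0.078 on the log2 scale, and lower on the 1 such plate of PdgfraGFP, at -0.55. The 2 plates of Acta2GFP also differed in sign, from -0.31 to 0.084. The difference was not tested.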

How the results depend on the processing

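Of the 9 genes, 46 values of a gene in a comparison, those printed one by one, were followed under the alternatives. Of the results, 420 kept their direction and their side of the threshold, 37 no longer passed and 24 newly passed. A further 17 changed sign, none of them called under either setting. The changes of sign listed below are of these 46 values only. Values outside them also changed sign: over the alternatives, *Cd34* for 2 against 6 ran from -0.47 to 2.74, *Pi16* there from -0.92 to 3.72, and *Ackr2* for 6 against 1 from -8.77 to 0.42. Of the list genes, 88 values no longer passed: without Acta2GFP 26 were lost and 14 kept, without PdgfrbGFP 20 and 23, without PdgfraGFP 10 and 29. The cause of a change was not tested, unless the setting left out sums.

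Genes called are given here as a percent of the genes tested in the comparison as reported above, in the order fibroblasts against mural cells, then clusters 5 against 7, 1 against 5, 6 against 1, 2 against 6, 2 against 7, 4 against 3 and 8 against 3, which were 6.57, 0.037, 0.412, 1.86, 2.1, 5.46, 0.668 and 1.04. DESeq2 called 15.6, 1.23, 2.30, 10.6, 11.97, 11.5, 5.92 and 5.87, with 1 of the 9 genes from 7 to 5 and 4 from 5 to 1. Of the genes called, it had 86.3% higher for 5 against 7, where edgeR had 100%, and 48.9% for 1 against 5, where edgeR had 60.3%. It moved the median over all genes to 0.14 from 0.04 for 5 against 7, to -0.13 from -0.29 for 6 against 1 and to 0.06 from 0.22 for 2 against 6. No filter gave 0.074 for 5 against 7, 2.90 for 4 against 3 (1 of the 9) and 2.90 for 8 against 3 (2 of the 9). With at least 3 cells per sum, 5 against 7 gave 0.058 (1 of the 9) and 2 against 6 gave 1.33. Plates in place of lines gave 13.1, 0.18 (1 of the 9), 2.67 (4 of the 9), 4.94, 4.03 (1 of the 9), 1.95 for 4 against 3 and 3.11 for 8 against 3. Limma on means per cell gave 0.33 for 5 against 7 (1 of the 9), 1.26, 4.005 and 5.25 for the next 3 steps, 0 for 4 against 3 and 1.89 for 8 against 3. The replicate block, the line, gave 3.08 for fibroblasts against mural cells and 1.035 for 4 against 3, and it changed no call of the 9 genes beyond those given above. Without the 3 plates the values were 3.87, 0.085 for 5 against 7, 0.497 for 6 against 1 and 0.238 for 2 against 6 (0 of the 9).

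Leaving out 1 line gave 1.497 to 5.925 for fibroblasts against mural cells (0 to 6 of the 9), 0 to 0.0053 for 5 against 7, 0.032 to 0.343 for 1 against 5 (1 to 2), 0.143 to 2.86 for 6 against 1 (1 to 3), 0.132 to 3.45 for 2 against 6 (0 to 2), 1.29 to 6.19 for 2 against 7 (2 to 8), 0.269 to 2.55 for 4 against 3 (0 to 1) and 2.32 to 4.42 for 8 against 3 (1 to 2). Cluster 8 had 1 sum, or 2 with plates or with at least 3 cells per sum, so its counts of calls support nothing, and it could not be tested without Acta2GFP.

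Signs turned for *Thy1* between fibroblasts and mural cells with limma (0.20), plates (0.0060), the block (0.26) and without the 3 plates (0.025), for *Ackr3* there with plates (-0.052), for *Cd81* from 7 to 5 with limma (-0.044), plates (-0.074), the block (-0.082) and without the 3 plates (-0.056), for *Ackr4* from 7 to 5 with the block (0.18) and for *Ly6a* from 1 to 6 with at least 3 cells (0.19). Under 1 line left out they turned for *Cd81* (-0.010 to 0.33) and *Thy1* (-0.55 to 0.58) between fibroblasts and mural cells, for *Cd81* (-0.068 to 0.14) and *Ackr4* (-0.53 to 0.25) from 7 to 5, and for *Cd34* (-2.0 to 3.26) and *Ly6a* (-0.38 to 2.93) from 3 to 4. Of 72 pairs of gene and cluster, 44 had a count in over 50% of cells, against 26 with at least 10 counts and 20 with at least 10 after thinning.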

Other observations

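Of the niche list, in the 1 sum of interstitial SMC, which had no replicate, the log2 fold change against vascular SMC was 8.12 for *Igf1*, 5.64 for the BMP ligand *Bmp4* and 5.20 for *Dkk3*, given with no p. From cluster 5 to cluster 1, where *Cd81* and *Ackr4* fell, *Bmp4* rose (1.27, adjusted p = 0.0086), which did not pass without Acta2GFP, PdgfraGFP or PdgfrbGFP. From cluster 1 to cluster 6, where *Cd34* fell, the secreted WNT binder *Sfrp1* fell (-5.27, adjusted p = 0.0033) and *Procr* rose (5.17, adjusted p = 0.00064). Pericytes were higher than vascular SMC in *Ly6e* (3.88, adjusted p = 0.024), a relative of *Ly6a*, which did not pass without Acta2GFP or with limma.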
